A study of Mus musculus with 18 samples.

Results

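Pthlh, Lrfn5, Megf10, Rxfp1 and Angptl7 are 5 of the 23420 gene rows in each of 3 expression tables from whole lungs of mouse embryos collected at 14.5 dpc, that is days after coitus. They were chosen by their higher level in mutant than in control lungs in these same data, and because none belongs to the genes of the amino acid and mitochondrial stress response. Their fold changes are therefore given as descriptions, with their errors and without a test. In the Rptor line the deficient lungs were Rptor f/f; ShhCre/+ and the controls Rptor f/+; ShhCre/+. In the Tfam line they were Tfam f/f; ShhCre/+ and Tfam f/+; ShhCre/+, and in the Cox10 line Cox10 f/f; ShhCre/+ and Cox10 f/+; ShhCre/+. Each of the 6 groups held 3 samples, 18 in all, and the controls came from the same litters. All groups, controls included, carried ShhCre, a recombinase driven by Shh and active in the lung epithelium, and controls also carried 1 floxed allele. Rptor encodes a scaffold of mTOR complex 1, Tfam a factor that maintains mitochondrial DNA, and Cox10 an enzyme needed to build cytochrome c oxidase.

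The 5 genes encode proteins of unlike kinds. Pthlh encodes parathyroid hormone-related protein (PTHrP), a secreted peptide. In the developing lung it is known as an epithelial signal received by mesenchymal cells that carry the receptor PTH1R, which couples to adenylyl cyclase and cyclic AMP, and lipofibroblasts are the cells best known to respond. Lrfn5 encodes a cell adhesion protein with leucine-rich repeats, known from synapses, where it binds receptor tyrosine phosphatases on the facing cell. Megf10 encodes a transmembrane protein with many EGF-like repeats that acts in the engulfment of dead cells and in muscle progenitor cells. Rxfp1 encodes the receptor for relaxin, which also raises cyclic AMP and is known for its effects on collagen turnover. Angptl7 encodes a secreted glycoprotein of the angiopoietin-like family, best known from the cornea and the outflow tissue of the eye.

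To show the sequence at which each gene starts, the stretch from 250 bases before to 50 bases after the annotated start is printed for the genes that the RefSeq promoter table of build GRCm38.p6 holds and that can be given here, which were Pthlh, Lrfn5 and Angptl7. Capitals mark matches, on either strand, to any of 10 short motifs. One was the ATF4-CEBP element, searched as TTGCATCA. The cyclic AMP response element was searched in full as TGACGTCA and in a looser form as TGACGNNA, which takes in the full one. The AP-1 site was written TGANTCA. Of the E-boxes, one searched was CAGCTG. The other E-box was written CACGTG. The GLI site was taken as TGGGTGGTC. The TATA box was taken as TATAAA. The last pair were the CCAAT box, named by its letters, and the GC box, searched as GGGCGG. The windows are chr6:147263964-147264263 on the minus strand for Pthlh, chr12:61522917-61523216 on the plus strand for Lrfn5 and chr4:148500413-148500712 on the minus strand for Angptl7.
Pthlh: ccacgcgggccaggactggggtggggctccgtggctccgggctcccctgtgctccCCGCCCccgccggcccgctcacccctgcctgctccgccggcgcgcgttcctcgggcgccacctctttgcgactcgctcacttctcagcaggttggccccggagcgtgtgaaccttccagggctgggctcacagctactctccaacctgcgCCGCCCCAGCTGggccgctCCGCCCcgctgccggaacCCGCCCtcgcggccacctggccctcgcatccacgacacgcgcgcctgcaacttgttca
Lrfn5: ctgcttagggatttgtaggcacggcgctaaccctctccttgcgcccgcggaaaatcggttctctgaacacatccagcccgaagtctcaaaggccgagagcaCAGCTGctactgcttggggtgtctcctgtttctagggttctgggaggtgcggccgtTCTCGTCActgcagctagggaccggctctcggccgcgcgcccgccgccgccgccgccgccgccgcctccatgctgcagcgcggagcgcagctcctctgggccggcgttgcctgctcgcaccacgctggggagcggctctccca
Angptl7: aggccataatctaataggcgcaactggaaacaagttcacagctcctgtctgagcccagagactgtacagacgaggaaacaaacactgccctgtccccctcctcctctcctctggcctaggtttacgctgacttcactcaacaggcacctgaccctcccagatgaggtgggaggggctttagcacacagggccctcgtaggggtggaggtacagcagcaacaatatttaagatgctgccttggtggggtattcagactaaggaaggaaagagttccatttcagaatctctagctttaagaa

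The Pthlh and Lrfn5 windows resembled each other in base composition, and the Angptl7 window did not resemble them. G and C made up 74% of the Pthlh window, 67.7% of the Lrfn5 window and 51.3% of the Angptl7 window, against a median of 52.7% over 32851 promoters of the same length. The windows held 33, 32 and 4 CpG dinucleotides, against a median of 7. Pthlh had 4 GC boxes, a motif that 35.7% of all promoters hold, and 1 CAGCTG E-box next to one of them. Lrfn5 had 1 CAGCTG E-box, which 16.3% of promoters hold, and 1 cyclic AMP response element of the looser form, which 6.61% hold. None of the 10 motifs was found in the Angptl7 window. None of the 3 windows held the ATF4-CEBP element, which 0.895% of promoters hold. A match is a string of letters and not a measured binding site.

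With the step of each sample's values taken as 1 read, the samples held between 27675601 and 29704748 reads assigned to genes. Values are normalised reads, that is the reads of a gene after the authors scaled each sample. Xist, the RNA of the inactive X chromosome, was above 1000 normalised reads in 13 of 18 samples, so that both sexes were present. Rptor, Tfam and Cox10 were not past the threshold in their own lines (limma adjusted p = 0.570, 0.472 and 0.979), which in whole lung does not test a deletion confined to the epithelium. The lung transcription factor Nkx2-1 had at least 2092 normalised reads in every sample, and Sftpc, a marker of distal lung epithelium, at least 386. Rptor-deficient replicate 1 stood apart from the other Rptor-deficient lungs in 4 of the 5 genes described below, and its Rptor level of 2442 was above that of the 3 controls. Without it Rptor itself was lower in the deficient lungs by 0.16 on the log2 scale and passed (limma adjusted p = 0.0435). Of the 6 fits that left out a lung of the line, this was the 1 that passed. The lung left out had the highest Rptor level of its group, so nothing is read from that call. Values without this lung are given where they matter.

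In 13 of the 15 combinations of gene and line, all 3 deficient lungs were above all 3 controls. The exceptions were Angptl7 in the Tfam and Cox10 lines. Over all genes tested, such a complete separation upward was seen for 24.3% (Rptor), 10.9% (Tfam) and 10.6% (Cox10), and since the genes were chosen for this direction nothing is read from their count. Genes past the threshold in the higher direction made up 16.6%, 2.03% and 0.141% of those tested in the 3 lines, and those in the lower direction 18.2%, 2.63% and 0.335%.

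**Figure D1:**
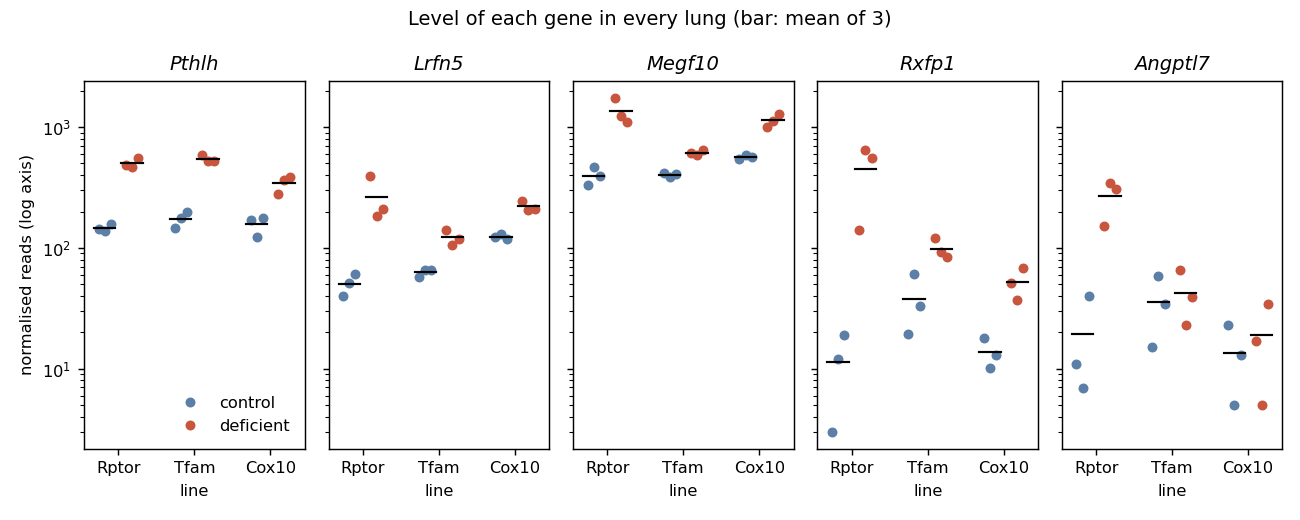
Normalised reads on a log axis for each of the 5 genes, with a point for each lung and a bar for the mean of 3, by line and state. Deficient lungs lie above controls for the first 4 genes in all 3 lines, while the Angptl7 points of the Tfam and Cox10 lines overlap.

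Pthlh, which encodes the ligand PTHrP, was the gene whose excess in deficient lungs was most even over the 3 lines. In the Rptor line its normalised reads were 143, 139 and 157 in control replicates 1 to 3 and 483, 466 and 549 in deficient replicates 1 to 3. Tfam controls had 145, 178 and 197, and Tfam-deficient lungs 590, 525 and 526. Cox10 controls had 171, 124 and 177, and Cox10-deficient lungs 281, 367 and 388. No deficient lung reached down to the control range in any line, and the smallest gap was in the Cox10 line, where the lowest deficient lung had 1.59 times the highest control. The ratio of means was 3.42 for Rptor, 3.15 for Tfam and 2.20 for Cox10. On the log2(value + 1) scale the differences were 1.76 (SE 0.11), 1.66 (SE 0.12) and 1.13 (SE 0.18). Pthlh lies at chr6:147252101-147264183 on the minus strand (GRCm38).

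The receptor of PTHrP was not higher in deficient lungs as its ligand was. Pth1r had means of 3331 normalised reads in controls and 3111 in deficient lungs of the Rptor line, a log2 difference of -0.099 (limma adjusted p = 0.254). With Tfam deleted it fell by 0.24 on the log2 scale, from a mean of 3095 to one of 2624 (limma adjusted p = 0.0270), and this call was lost without any single lung of that line other than control replicate 3. With Cox10 deleted the difference was -0.21 (limma adjusted p = 0.300). Pth, the gene of the related hormone, was at 0 in every sample. Of 36 listed transducers and response genes of cyclic AMP, 11 rose and 4 fell of 35 tested in the Rptor line, with a median log2 difference of 0.16 against 0.0083 over all genes. With Tfam deleted 1 rose and 1 fell of 36, and with Cox10 deleted 1 fell of 34. The gene that fell in each line was Adcy7, an adenylyl cyclase, with log2 differences of -0.96, -0.47 and -0.63 (limma adjusted p = 0.000632, 0.0137 and 0.0184). The Cox10 call was lost without any of the 3 controls or deficient replicate 2, and the Tfam call without control replicate 1 or deficient replicate 1 or 3. Among Rptor calls, Pde3a, a cyclic nucleotide phosphodiesterase, rose by 0.83 (limma adjusted p = 0.00107) and Prkar1b, a regulatory subunit of protein kinase A, by 0.74 (limma adjusted p = 0.000387), while Adcy1 fell by 0.81 (limma adjusted p = 0.00114).

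Lipofibroblasts are lipid-storing fibroblasts of the lung, and 8 of their genes were listed. Of these, 5 of 8 rose and none fell in the Rptor line, with a median log2 difference of 0.71. These were Lepr (1.09), Tcf21 (0.77), Lpl (0.73), Pdgfra (0.69) and Plin2, a lipid droplet protein (0.58), with limma adjusted p values from 6.10e-05 to 0.00330. The Tfam line had 2 of 8 higher, Cd36, a fatty acid transporter, which rose by 0.80 (limma adjusted p = 0.00230) and Lepr by 0.57 (limma adjusted p = 0.000924). Cd36 did not pass in that line when all 18 samples were fitted together (limma adjusted p = 0.209). None of 8 passed the limma threshold for Cox10, and 2 had an unadjusted p below 0.05. Lepr differed by 0.77 there (limma adjusted p = 0.0620), and it passed with Xist as a covariate, with all samples in one fit and without Cox10-deficient replicate 1 or 3. Cd36 had a log2 difference of 0.80 in the Rptor line too, which did not pass as tested (limma adjusted p = 0.0800) but passed once the replicate number was added as a block (limma adjusted p = 0.00119). Tcf21 and Pdgfra are also general markers of lung mesenchyme, whose list moved in the Rptor line as described below.

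Lrfn5 was higher in all 3 lines and most of all in the Rptor line. Its normalised reads there were 39.9, 51.0 and 60.7 in controls and 397, 185 and 209 in deficient lungs. Tfam controls had 57.9, 65.7 and 66.0, and Tfam-deficient lungs 141, 106 and 119. Cox10 controls had 122, 131 and 119, and Cox10-deficient lungs 244, 207 and 209. The groups did not overlap in any line, and Rptor-deficient replicate 1 held the highest level of all 18 lungs. The controls of the Cox10 line were about as high as the deficient lungs of the Tfam line, but the lines come from separately scaled tables. The log2 differences were 2.30 (SE 0.29), 0.93 (SE 0.15) and 0.82 (SE 0.12), and without Rptor-deficient replicate 1 the first was 1.96. Lrfn5 lies at chr12:61523150-61858342 on the plus strand (GRCm38).

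The 4 other genes of the Lrfn family did not pass the limma threshold in any line. At an unadjusted p below 0.05 there was 1 of 4 in the Rptor line, Lrfn3, and none in the other lines. Lrfn3 had a log2 difference of 0.27 there (limma adjusted p = 0.0875), and passed when all 18 samples were fitted together (limma adjusted p = 0.0396). Lrfn4 differed by -0.010, -0.035 and -0.031 in the 3 lines. Among the listed relatives and partners of Lrfn5, 3 rose and 1 fell of 11 in the Rptor line, and none of 11 passed with Tfam or Cox10 deleted, although 2 and 3 had an unadjusted p below 0.05. The 3 that rose were the receptor phosphatases Ptprd (0.66, limma adjusted p = 0.000402) and Ptprs (0.40, limma adjusted p = 0.00578) and the scaffold Dlg4 (0.51, limma adjusted p = 0.0216), and the third phosphatase, Ptprf, fell by 0.26 (limma adjusted p = 0.0293). The Dlg4 call was lost without Rptor control replicate 1 or 2, and the Ptprf call without any single lung of the line other than deficient replicate 1. Of other synaptic proteins with leucine-rich repeats, 7 of 14 rose with Rptor deleted and 2 of 15 with Tfam deleted, and none fell. Slitrk4 rose by 1.77 (limma adjusted p = 0.00195) and 0.76 (limma adjusted p = 0.0139) in these 2 lines, and Slitrk6 by 0.83 (limma adjusted p = 0.000253) and 0.54 (limma adjusted p = 0.00135). The Tfam call of Slitrk4 was lost without control replicate 1 or deficient replicate 3, and with all samples in one fit. For Cox10 none of 15 passed and 3 had an unadjusted p below 0.05, Slitrk6 having a log2 difference of 0.51 (limma adjusted p = 0.0790 without and 0.0497 with the replicate block). Slitrk6 also passed there with Xist as a covariate, with all samples in one fit and without Cox10-deficient replicate 1.

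Megf10 too was higher in all 3 lines. Its normalised reads in the Rptor line were 333, 464 and 391 in controls and 1747, 1240 and 1111 in deficient lungs. Tfam controls had 413, 384 and 412, and Tfam-deficient lungs 610, 583 and 644. Cox10 controls had 545, 590 and 567, and Cox10-deficient lungs 1008, 1126 and 1275. The groups did not overlap in any line, although the lowest deficient lung of the Tfam line had only 1.41 times the highest control. Replicates differed little in the Tfam line, where the coefficient of variation was 4.13% in controls and 5.03% in deficient lungs. The log2 differences were 1.77 (SE 0.18), 0.60 (SE 0.078) and 1.00 (SE 0.092), and without Rptor-deficient replicate 1 the first was 1.58. By this measure the Cox10 line exceeded the Tfam line for Megf10, the reverse of the order for Pthlh.

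The nearest relatives of Megf10 rose in the Rptor line. Megf11, its closest paralog, had 42.9 to 54.7 normalised reads in Rptor-line controls and 103 to 182 in deficient lungs, a log2 difference of 1.56 (limma adjusted p = 0.00182). With Tfam or Cox10 deleted its differences were 0.22 (limma adjusted p = 0.520) and 0.16 (limma adjusted p = 0.734). The Rptor effect on Megf11 exceeded the mean of the Tfam and Cox10 effects by 1.37 (SE 0.26; limma adjusted p = 0.00193), in a test that 14.3% of 14548 genes passed in either direction. Pear1, a further relative known from platelets and endothelium, rose by 0.58 in the Rptor line (limma adjusted p = 0.000631), and its difference between lines was 0.46 (SE 0.096; limma adjusted p = 0.00389). Of 20 listed relatives and engulfment genes, 14 rose and 1 fell of 19 tested in the Rptor line, with a median log2 difference of 0.47. Megf6 rose by 0.92 (limma adjusted p = 0.000294), Stab2, a scavenger receptor of sinusoidal endothelium, by 0.78 (limma adjusted p = 0.00805), and Abca1, a cholesterol transporter, by 0.70 (limma adjusted p = 0.000189). The engulfment adaptor Gulp1 rose by 0.53 (limma adjusted p = 0.00112), and the receptor kinase Tyro3 fell by 0.43 (limma adjusted p = 0.00270). Stab2 was the 1 gene of 20 that passed with Tfam deleted, with a rise of 0.76 (limma adjusted p = 0.000520), and it passed in neither line with all samples in one fit. With Cox10 deleted none of 19 passed the limma threshold and 11 had an unadjusted p below 0.05. The 7 listed macrophage markers rose in the Rptor line as well, and their summed level went from 3981 to 4369 normalised reads in controls to 6475 to 7801 in deficient lungs. Their part in the engulfment genes was not tested.

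**Figure D2:**
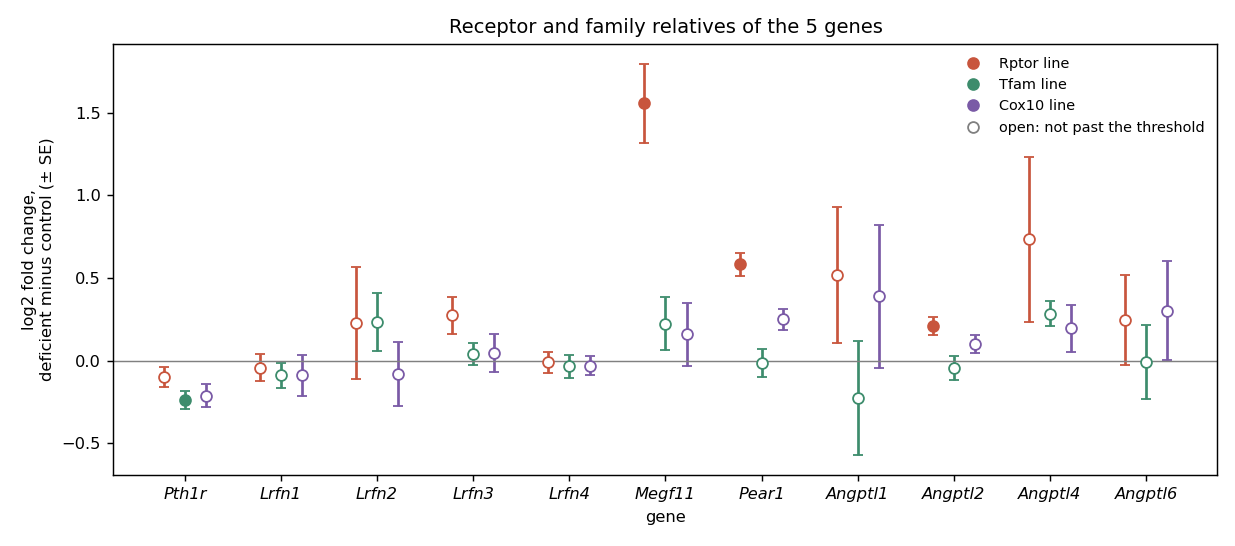
Log2 difference between deficient and control lungs, with its standard error, for the PTHrP receptor and the Lrfn, Megf and angiopoietin-like relatives in the 3 lines (filled points passed a limma adjusted p of 0.05). Filled points above 0 are found in the Rptor line, for Megf11, Pear1 and Angptl2, and Pth1r of the Tfam line is the filled point below 0.

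Rxfp1, the relaxin receptor, had few reads in control lungs and, in the Rptor and Cox10 lines, the largest fold change of the 5 genes, while Pthlh had the largest with Tfam deleted. For Rptor its normalised reads were 2.99, 12.0 and 18.9 in controls and 140, 651 and 556 in deficient lungs. Tfam controls had 19.3, 60.6 and 33.0, and Tfam-deficient lungs 120, 92.3 and 84.1. Cox10 controls had 17.9, 10.1 and 13.0, and Cox10-deficient lungs 50.9, 37.2 and 68.2. Deficient lungs lay above controls in each line, so that the higher level was not limited to the Rptor line, where it was larger. The ratio of means was 39.7 for Rptor, 2.62 for Tfam and 3.82 for Cox10. The log2 differences were 5.20 (SE 0.69), 1.50 (SE 0.33) and 1.85 (SE 0.31). They ranked 2 of 14939, 25 of 15052 and 4 of 14936 genes tested, counted from the largest rise. Spread was wide, with a coefficient of variation of 70.6% in Rptor-line controls and 60.6% in Rptor-deficient lungs, and without Rptor-deficient replicate 1, the lowest of its group, the log2 difference was 5.90. Rxfp1 lies at chr3:79641611-79737880 on the minus strand (GRCm38).

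The ligands of the receptor were barely detected. Rln1 had means of 2.99 normalised reads in controls and 10.1 in deficient lungs of the Rptor line, and of 1.00 to 3.00 in the groups of the other lines, and Rln3 had means of 0.662 to 1.67. Both were below the filter of 10 normalised reads in 3 of 6 samples in every line and were not tested. The related receptor Rxfp2 had means of 3.00 to 17.3 and was tested in the Tfam and Cox10 lines, where it did not pass (limma adjusted p = 0.413 and 0.871). Of 12 listed genes of matrix turnover and other known targets of relaxin, 6 of 11 tested rose and none fell in the Rptor line, with a median log2 difference of 0.39. Col1a1, the main fibrillar collagen, rose by 1.14 (limma adjusted p = 0.000247), Col3a1 by 0.95 (limma adjusted p = 9.17e-05), the gelatinase Mmp2 by 0.68 (limma adjusted p = 0.000288) and its activator Mmp14 by 0.47 (limma adjusted p = 0.000694). None of 11 passed the limma threshold for Tfam or Cox10, and 1 and 2 had an unadjusted p below 0.05. Col1a1 is also on the list of mesenchymal markers.

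Angptl7 was the gene of the 5 whose higher level was seen in the Rptor line alone by the separation of its groups. Its normalised reads there were 11.0, 6.99 and 39.8 in controls and 152, 345 and 308 in deficient lungs. Tfam controls had 15.2, 58.6 and 34.0, and Tfam-deficient lungs 65.5, 22.8 and 39.1. Cox10 controls had 22.8, 5.04 and 13.0, and Cox10-deficient lungs 17.0, 5.03 and 34.6. The lowest Rptor-deficient lung had 3.82 times the highest control, while the groups of the other lines were intermixed. The ratio of means was 13.9 for Rptor, 1.18 for Tfam and 1.38 for Cox10. The log2 differences were 4.01 (SE 0.57), 0.30 (SE 0.46) and 0.31 (SE 0.72), and the errors of the last pair of values exceeded the values themselves. Rptor-deficient replicate 1 was again the lowest of its group, and without it the first difference was 4.38. Leaving out each lung of the Rptor line in turn gave 3.52 to 4.70.

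Angptl7 lies at chr4:148495183-148500460 on the minus strand (GRCm38), inside the Mtor gene, which is read from the plus strand. None of the 2157 exonic bases of Angptl7 is shared with an exon of Mtor, although reads from unspliced Mtor RNA could fall on them where strand is not used in counting, which the sources used here do not state. Mtor, which encodes the kinase that Rptor serves, had means of 2522 and 2408 normalised reads in control and deficient lungs of the Rptor line, a log2 difference of -0.069 (limma adjusted p = 0.464), with -0.043 and -0.028 in the other lines.

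Among the listed relatives, Angptl2 rose by 0.21 in the Rptor line (limma adjusted p = 0.0210), a call lost without control replicate 1, control replicate 3 or deficient replicate 2. Angptl1 and Angptl6 did not pass in any line. Angptl4, a lipase inhibitor, spanned 388 to 986 normalised reads in Rptor-line controls and 523 to 1858 in deficient lungs, a log2 difference of 0.73 that did not pass (limma adjusted p = 0.285). Blocking on the replicate number brought it past the threshold (limma adjusted p = 0.00163), and without deficient replicate 1 it was 1.32 (limma adjusted p = 0.0152). Of 8 tested angiopoietin and angiopoietin-like genes 5 rose and none fell in the Rptor line, with a median log2 difference of 0.51. Besides Angptl2 they were Angpt2 (0.75, limma adjusted p = 0.00192), Angpt1 (0.70, limma adjusted p = 0.000286), and the endothelial receptors Tie1 (0.49, limma adjusted p = 0.000543) and Tek (0.35, limma adjusted p = 0.00196). None of 8 passed with Tfam or Cox10 deleted, although 4 and 0 had an unadjusted p below 0.05. The endothelial marker list, which holds Tek and Tie1 too, had 6 of 8 genes higher in the Rptor line.

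The 5 genes differed in how far the Rptor line stood above the others. The Rptor effect minus the mean of the Tfam and Cox10 effects was 0.37 (SE 0.18) for Pthlh, 0.97 (SE 0.17) for Megf10, 1.42 (SE 0.27) for Lrfn5, 3.52 (SE 0.69) for Rxfp1 and 3.70 (SE 0.85) for Angptl7. Ranked from the largest among 14548 genes, these differences stood at 1813, 250, 59, 6 and 5. The values for Rxfp1 and Angptl7 differed by less than their errors, as did the Rptor and Tfam effects for Pthlh. Leaving out Rptor-deficient replicate 1 lowered the difference to 1.08 for Lrfn5 and 0.78 for Megf10, and raised it to 4.22 for Rxfp1.

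**Figure D3:**
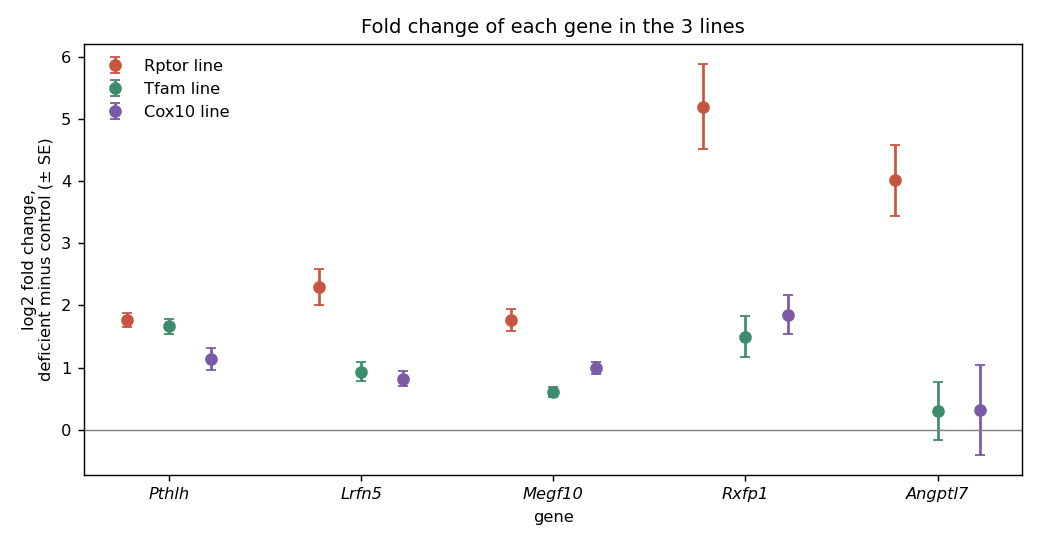
Log2 difference between deficient and control lungs, with its standard error, for the 5 genes in the 3 lines, on the log2(value + 1) scale. The Rptor value exceeds the others by 0.37 over their mean for Pthlh and by 3.70 for Angptl7.

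Per kilobase of exon, the order of levels in the Rptor-line controls was Pthlh with 90.3 normalised reads, Megf10 with 51.3, Angptl7 with 8.92, Lrfn5 with 5.29 and Rxfp1 with 1.12. In Rptor-deficient lungs it was Pthlh with 309, Megf10 with 177, Angptl7 with 124, Rxfp1 with 44.7 and Lrfn5 with 27.6. Rxfp1 thus moved ahead of Lrfn5 in mean level, although its lowest deficient lung, at 140 normalised reads over a longer transcript, was below the Lrfn5 range per kilobase.

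To ask whether the genes varied together among lungs of the same group, which the selection did not use, deviations from the 6 group means were correlated for the 10 pairs of genes. Rxfp1 and Angptl7 varied together over the 18 lungs, with a Pearson r of 0.69 (two-sided exact permutation p = 0.00407 over 46656 arrangements within groups, 0.0407 adjusted over 10 pairs) and a Spearman rho of 0.80 (exact permutation p = 0.000514, adjusted 0.00514). Because replicate numbers were taken to pair lungs in the Rptor and Cox10 lines, the test was repeated, after the data were seen, with the lungs of one number moved together there (exact permutation p = 0.00154 over 1296 arrangements, adjusted 0.0154, for r and for rho). The other exact tests given here permuted lungs independently within groups. Without the 2 lungs farthest from the median of Rxfp1, r was 0.87 (exact permutation p = 0.00116). Within lines, each with 6 lungs, r was 0.65 for Rptor, 0.88 for Tfam and 0.99 for Cox10 (exact permutation p = 0.278, 0.111 and 0.0556 over 36 arrangements). It was 0.69 in the 9 control lungs (exact permutation p = 0.106) and 0.69 in the 9 deficient lungs (exact permutation p = 0.0139). Over all 18 lungs, those with more Rxfp1 than others of their group also had more Angptl7, while no line alone passed. No other pair passed. The r of Lrfn5 and Rxfp1 turned from -0.19 to 0.70 without the 2 farthest lungs (exact permutation p = 0.0405, adjusted 0.135), and it was 0.83 in control and -0.80 in deficient lungs. Lrfn5 and Megf10 had an r of 0.64 (exact permutation p = 0.175, adjusted 0.437), which fell to 0.21 without the 2 farthest lungs, and Pthlh and Megf10 had -0.023 (exact permutation p = 0.921, adjusted 0.938).

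**Figure D4:**
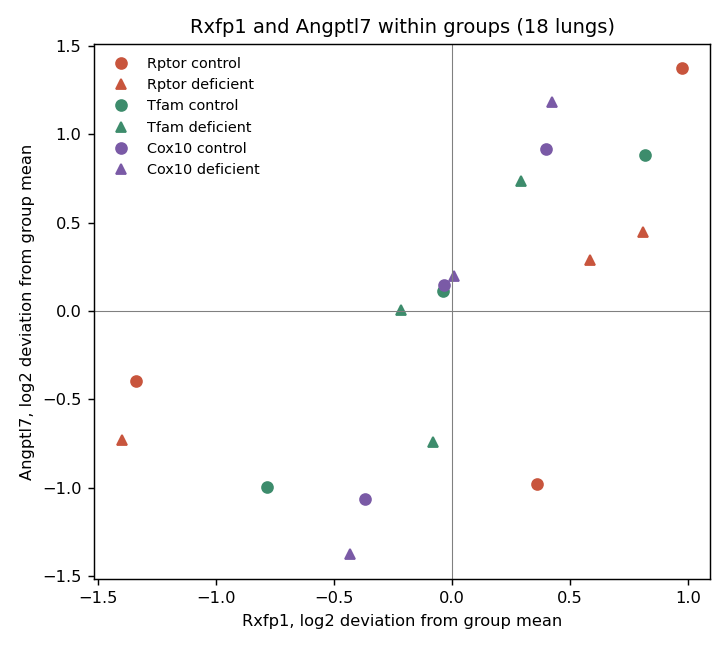
Deviation of Angptl7 from its group mean against that of Rxfp1, in log2 units, for 18 lungs by line and state. The points rise together with r = 0.69, and Rptor control replicate 2, at the lower right, lies off that trend.

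The genes whose pattern over the 18 lungs was most like each member were found by Pearson r after each line was centred on its controls, a description in which the points share tables and controls. Pthlh was most like Bmp4 (r = 0.975), a growth factor of the distal lung tip, and then Atoh1 and Phf17. Bmp4 differed by 0.63, 0.61 and 0.47 on the log2 scale in the Rptor, Tfam and Cox10 lines. Lrfn5 was most like Sema3d (r = 0.979), a secreted guidance cue, then Enpp1 and Adamts1. Megf10 was most like Slc26a7 (r = 0.981), an anion transporter, then Thbd and Celf2. Rxfp1 was most like Fibin (r = 0.973), Fndc5 and Cmtm3. Angptl7 was most like Loxl1 (r = 0.970), an enzyme that crosslinks elastic fibres, then Megf6 and Wdfy4. Loxl1 differed by 0.93 in the Rptor line and by 0.0020 and 0.046 in the other lines. By Spearman rho none of the 3 nearest genes stayed among the first 3 for Pthlh, Lrfn5 and Megf10, and 1 stayed for Rxfp1 and for Angptl7.

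Genes that lie next to the 5 in the genome were mostly not past the threshold. Of 21 neighbours in the RefSeq annotation 16 were tested, and 3 passed the threshold for Rptor, 1 for Tfam and none for Cox10, for which 1 had an unadjusted p below 0.05. Beside Pthlh, Far2 rose by 0.57 in the Rptor line (limma adjusted p = 0.00393) at a distance of 783.4 kb. It differed by 0.67 with Cox10 deleted (limma adjusted p = 0.106), and passed there with all samples in one fit (limma adjusted p = 0.00235). Mansc4, 165.1 kb away on the other side, rose by 0.60 in the Tfam line (limma adjusted p = 0.0108). That call was lost without deficient replicate 2 or 3 and with all samples in one fit. Beside Rxfp1, 4930579G24Rik, only 8.8 kb away, fell by 0.28 in the Rptor line (limma adjusted p = 0.0340), a call lost without any single lung of the line other than control replicate 1, and with Xist as a covariate. Beside Angptl7, Srm, an enzyme of spermidine synthesis, fell by 0.39 (limma adjusted p = 0.00455). Mansc4 also passed in the Rptor line once the replicate number was added as a block (0.95, limma adjusted p = 0.00731).

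Levels of cell type markers also differed between deficient and control lungs, for more genes in the Rptor line than in the other lines. In whole lung, fewer cells of a type and less RNA per cell cannot be told apart. Of 15 markers of the whole epithelium 14 fell with Rptor deleted, 6 with Tfam deleted and 2 with Cox10 deleted, and none rose. Their summed level went from 37192 to 38219 normalised reads in Rptor-line controls to 16287 to 21275 in deficient lungs. The list of distal epithelium was split, as 3 of its 8 markers rose and 4 fell with Rptor deleted. With Tfam deleted 3 of them rose and 3 fell, and with Cox10 deleted 1 fell. Cdh1, the epithelial cadherin, fell by 1.89 in the Rptor line (limma adjusted p = 2.16e-05) and by 0.55 in the Tfam line (limma adjusted p = 0.000371). Of 10 fibroblast and mesenchyme markers 7 rose with Rptor deleted and 2 with Tfam deleted, and none fell. Their summed levels were 123123 to 144464 in Rptor-line controls and 249723 to 282782 in deficient lungs. Pdgfra and Tcf21, with means of 6550 and 3707 in those controls, made up a small part of this sum. Tbx4, Tbx5 and Foxf1, also on the list, differed by only -0.037, 0.025 and 0.12 in the Rptor line. Fgf10, a signal from distal mesenchyme, rose by 1.87 in the Rptor line (limma adjusted p = 2.51e-05) and by 0.93 in the Tfam line (limma adjusted p = 3.82e-05). With Cox10 deleted it differed by 1.00 (limma adjusted p = 0.0525), and it passed with Xist as a covariate, with all samples in one fit and without deficient replicate 1 or 3. With Rptor deleted 5 of 7 mesothelial markers and 7 of 7 macrophage markers rose, while 6 of 9 cartilage markers and 6 of 9 smooth muscle markers fell. The summed level of the smooth muscle list did not follow its counts there, with 1 of 9 markers risen and a log2 difference of the sum of 0.015 (SE 0.22). With Tfam deleted 6 of 9 smooth muscle markers fell as well. Of 11 neuron and glia markers 2 fell and none rose in the Rptor line, although 8 had a positive log2 difference. The summed level of that list differed there by -0.57 (SE 0.016). Skeletal muscle markers, with Megf10 being known in muscle progenitors, summed to 32.6 to 588 normalised reads over all samples, and 1 of 4 tested fell in the Rptor line. None of these lists had a gene at 0 in all 6 samples of a line except that of red blood cells. The part of these shifts in the levels of the 5 genes was not tested.

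**Figure D5:**
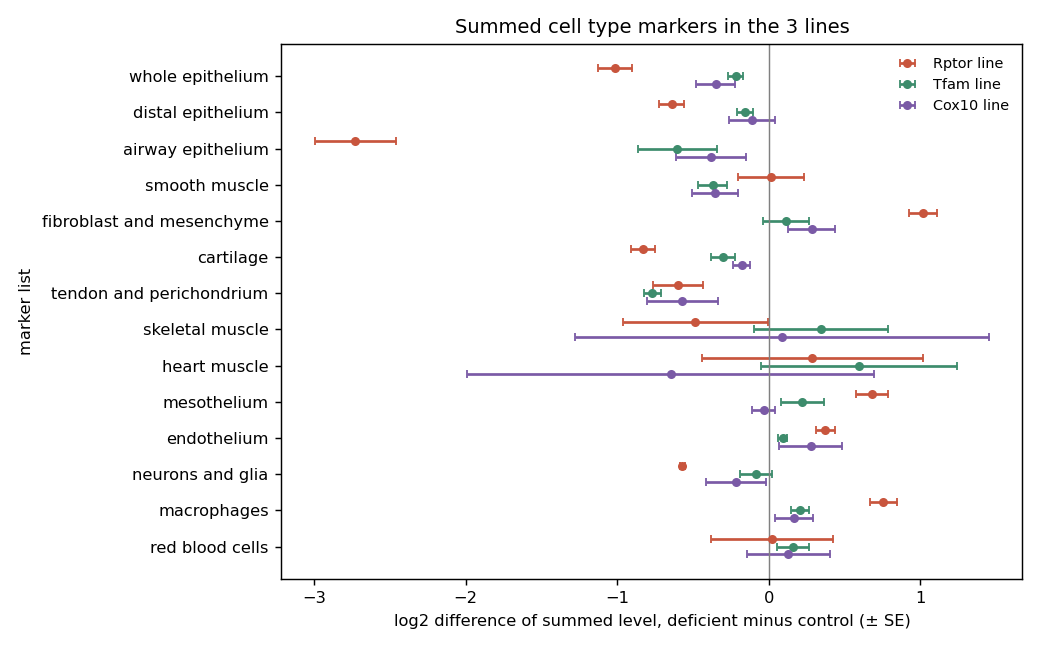
Log2 difference in the summed level of each of 14 marker lists between deficient and control lungs, with its standard error over 3 lungs a group, by line. In the Rptor line airway epithelium lies at -2.73, whole epithelium at -1.02, and fibroblast and mesenchyme at 1.02.

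How the 5 genes compare with these lists was computed by taking each level relative to the summed markers, a measure chosen after the values were seen. Relative to whole epithelium, Pthlh was higher in deficient lungs by 2.78, 1.88 and 1.49 on the log2 scale in the Rptor, Tfam and Cox10 lines. Relative to fibroblast and mesenchyme markers the Rptor values were 4.18 for Rxfp1, 2.99 for Angptl7, 1.28 for Lrfn5, and 0.75 for both Megf10 and Pthlh. Relative to whole epithelium Megf10 differed by 2.79, 0.82 and 1.35 in the 3 lines. Relative to the fibroblast and mesenchyme markers it differed by 0.75, 0.49 and 0.71, and Pthlh was highest in the Tfam line at 1.55. Rxfp1 kept the largest value in the Rptor line, against 1.38 and 1.57 in the Tfam and Cox10 lines. In each of the 13 combinations in which the groups had not overlapped they did not overlap on these scales either. The share of all genes that separate on these scales is not given here, and the 5 genes were chosen for their rise. Nothing is therefore read from that count, and the part of the marker shifts in these values was not tested.

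The stress response, to which the 5 genes do not belong, followed another order of lines. Of 30 listed genes of the integrated stress response, which cells switch on through ATF4 when amino acids run short or mitochondria fail, 21 rose and none fell of 29 tested in the Tfam line, with a median log2 difference of 0.43. Chac1, a glutathione-degrading enzyme, rose there by 3.47 (limma adjusted p = 3.30e-07) and Asns, asparagine synthetase, by 1.57 (limma adjusted p = 3.30e-07). For Cox10 2 of 27 rose, Slc7a3, an amino acid transporter, by 1.57 (limma adjusted p = 0.0365) and Trib3 by 1.24 (limma adjusted p = 0.0312). With the replicate block both had a limma adjusted p of 0.0566, and both calls were lost without any of the 3 controls or deficient replicate 2. The Trib3 call was also lost with all samples in one fit. For Rptor 5 rose and 8 fell of 27, with Mthfd2, a mitochondrial folate enzyme, down by 1.00 (limma adjusted p = 5.75e-05), Psat1, of serine synthesis, by 0.94 (limma adjusted p = 2.35e-05) and Asns by 0.75 (limma adjusted p = 0.00156). The 5 that rose there were Vldlr (0.63, limma adjusted p = 0.00590), Atf3 (0.60, limma adjusted p = 0.0488), Slc7a3 (0.58, limma adjusted p = 0.0258), Ddit3 (0.44, limma adjusted p = 0.0417) and Pycr1 (0.29, limma adjusted p = 0.0377), named after their values were seen. The Slc7a3 and Pycr1 calls were lost without any single lung of the line, the Atf3 call without any but deficient replicate 3, and the Ddit3 call without control or deficient replicate 1 or 2. Blocking on the replicate number also ended the Atf3 and Ddit3 calls (limma adjusted p = 0.0604 and 0.0511), as did Xist as a covariate and testing without a filter on low values.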

How the data were processed

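Gene expression was measured by RNA-seq of whole embryonic lungs at 14.5 dpc in 3 deficient and 3 littermate control samples of each of 3 lines, grouped by the sample labels. The submitters' processing notes name Trim Galore, HISAT2, featureCounts, DESeq2 and build mm10, without versions, and strand use in counting is not given in the sources used here. Per the file headers and values, the authors deposited a normalised signal for each gene and sample, and 100% of values in all samples were multiples of 1 step per sample (0.978 to 1.02, tolerance 0.01 of the step). Reads were taken as value over step. The authors' columns of fold change and p-value in the same tables were not used. The 3 lines have separate tables.

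Values were analysed as log2(value + 1), which understates changes of low genes. Genes were tested within a line when 3 or more of its 6 samples had a value of 10 or more. Each line was fitted alone in limma 3.58.1 (R 4.3.3; lmFit, eBayes with trend), and p-values were adjusted by Benjamini-Hochberg over all genes tested, with a threshold of 0.05. The Rptor effect minus the mean of the Tfam and Cox10 effects was tested in 1 fit of all 18 samples. Tests were two-sided. The limma fit within a line was tested on simulated data. The members, the gene lists and the tests were chosen with earlier results of these data known. Named genes were the 5 members, their closest receptors and relatives, up to 4 genes past the threshold per list and line by absolute change (some are counted only), 2 for marker lists, the 3 genes most like each member, neighbours and the deleted genes. Dlg4, Stab2 in the Rptor line, Gulp1, Tyro3, Plin2 and Tek were named besides.

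Replicates are labelled as separate samples, but no source says that each is 1 embryo, so p-values measure the spread between these samples. Samples with the same replicate number deviated together in the Rptor line (r = 0.207, 0.445 and 0.392) and the Cox10 line (0.554, 0.16 and 0.117) and not in the Tfam line (-0.437, -0.254 and 0.252), so that the numbers were taken to pair samples in the Rptor and Cox10 lines. The replicate numbers come from the sample titles, which do not state a pairing. Promoter sequences are from RefSeq (GRCm38.p6), and 3 of the 5 genes are shown. Gene positions are from GENCODE release M21. Alternatives were other pseudocounts, scalings and filters, the replicate block, all samples in one fit, Xist as a covariate, and leaving out each sample.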

Additional observations from a re-analysis of the deposited data

Results flagged for a closer look

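The groups of 3 were too small for a search for outlying samples. Among the listed partners, markers and neighbours named with the 5, those whose Rptor effect differed from the mean of the Tfam and Cox10 effects in the test of that difference (limma adjusted p below 0.05) are given here with this difference on the log2 scale. The 5 genes themselves were selected on such effects, and the genes most like them on their pattern, so that neither are given here as tested, except Megf6, which was listed as a relative of Megf10 and is also among the genes most like Angptl7.

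Among relatives and engulfment genes of Megf10 the difference was 1.37 for Megf11, 0.76 for Megf6, 0.53 for Abca1, 0.46 for Pear1 and 0.41 for Gulp1. Among partners and relatives of Lrfn5 it was 1.06 for Slitrk4, 0.78 for Flrt1, 0.51 for Ptprd and 0.33 for Ptprs. Among angiopoietin genes it was 0.69 for Angpt2 and 0.58 for Angpt1. Among lipofibroblast genes it was 0.65 for Tcf21, 0.59 for Lpl, 0.48 for Pdgfra and 0.43 for Plin2, and among matrix genes 0.97 for Col1a1, 0.79 for Col3a1, 0.51 for Mmp2 and 0.44 for Mmp14. Among cyclic AMP genes it was 0.57 for Prkar1b, 0.51 for Pde3a, -0.59 for Adcy1 and -0.41 for Adcy7. Among stress genes it was -3.00 for Chac1, -1.84 for Asns, -1.82 for Slc7a3, -1.55 for Mthfd2, -1.40 for Trib3, -1.14 for Psat1 and -0.79 for Phgdh. Among cell type markers it was -1.40 for Cdh1, -0.52 for Nkx2-1 and 0.90 for Fgf10. Beside Lrfn5 in the genome, Fbxo33 had -0.47. It passed in no line fitted alone, and in the Rptor line when all samples were fitted together. The calls for Adcy7, Fbxo33, Flrt1, Plin2, Slitrk4 and Trib3 were lost in 8 or more of the 18 fits that left out a sample, and that for Ptprs without Rptor control replicate 2.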

How the results depend on the processing

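The direction of the 5 genes was kept under every setting run except that Angptl7, when a sample was left out, ranged from -0.20 to 0.74 with Tfam deleted and from -0.28 to 1.00 with Cox10 deleted. Other pseudocounts, scalings to the same total or by trimmed means, Xist as a covariate, all samples in one fit and the replicate block each moved the 15 differences by less than the spread between replicates. Leaving out a sample moved the difference between lines to between 1.08 and 1.63 for Lrfn5 and between 0.78 and 1.11 for Megf10. The range was 2.85 to 4.22 for Rxfp1, 3.21 to 4.39 for Angptl7 and 0.30 to 0.45 for Pthlh. The 10 correlations within groups kept their calls, also with paired lungs moved together, but without the 2 farthest lungs r changed sign for Lrfn5 and Rxfp1, Megf10 and Rxfp1, and Pthlh and Lrfn5, none of which passed.

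Counts moved more. In the Tfam line 702 genes passed in the separate fit and 399 with all samples in one fit, with 354 to 1114 when a sample was left out. In the Cox10 line 71 passed, 327 with all samples in one fit, 117 with Xist as a covariate, and 3 to 255 when a sample was left out. The difference between lines had 2087 genes, and 1363 to 3016 when a sample was left out. Neighbours past the threshold in the Rptor line were 3, with 5 under the replicate block and 6 with all samples in one fit. In the Tfam line they were 1, with 0 in one fit and 0 to 3 when a sample was left out, and in the Cox10 line 0, with 1 in one fit. Pathway and family genes that passed higher in the Cox10 line were 2, with 5 with Xist, 7 in one fit and 0 to 8 when a sample was left out. Those lower were 1 there (0 to 1 when a sample was left out) and 2 in the Tfam line (0 to 5). Markers higher in the Tfam line were 6, with 19 with Xist, and those lower 23, with 12 in one fit. In the Cox10 line markers higher were 0, with 2 with Xist, 7 in one fit and 0 to 6 when a sample was left out, and those lower 5, with 3 under the replicate block, 16 in one fit and 0 to 17 when a sample was left out. The cause was not tested. By Spearman rho 0 of the 3 genes most like Pthlh, Lrfn5 and Megf10 were kept, and 1 for Rxfp1 and Angptl7.

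The replicate block changed the calls given with the results and those of Lpl in the Tfam line (limma adjusted p = 0.0361), Pde4b in the Rptor line (0.0237) and Asns in the Cox10 line (0.0391), which then passed. It also added the differences between lines of Angptl4, Dlg4, Mansc4 and Slitrk6, and no other call of a named gene changed under it. A planned count test (edgeR) was not run, because a check of the recovery of whole reads that asks for a step clearly away from 1 passed for only 5 of the 18 samples. With 3 samples a group and 3 to 60 reads of Rxfp1 and Angptl7 in controls, their fold changes are loosely set by these data.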
